A study of Mus musculus with 36 samples.

Results

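The Gata4 viewpoint of mouse chromosome 14 was described through every table position that had a finite contact score in all 4 columns. These were 1073 of the 1095 rows for Gata4, and 26.0% of the 4130 such positions over the 4 viewpoints of the series. They comprised 533 positions with lower coordinates than the viewpoint (the lower side) and 540 with higher ones (the higher side). The series compared contacts of 4 genes of early lineages in mouse embryonic stem cells (ES, day 0) and in embryoid bodies (EB, day 6), in wild type cells (WT) and in cells labelled Whsc1-/- (here KO), with no word on how the allele was made. Contacts were read by UMI-4C, in which DNA ends lying close together in the nucleus are ligated, and the ligation events of a chosen fragment, the viewpoint, are counted with molecular identifiers. All groups came from cultures of ES cells kept on gelatine, and the EB were made from hanging drops of such cells and then grown in suspension. The labels describe 2 media for the ES cells without saying which was used here, name no ES line or clone, and do not say whether the libraries of a group came from separate cultures. The cell types within the EB are not given. The labels also list RNA-seq libraries, which were not analysed here, and neither stage nor genotype was checked against marker genes.

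The labels list 8 Gata4 libraries, 2 for each of the 4 groups, but each group has 1 column of scores. Neither an error between replicates nor a depth could be computed, no test was made, and every difference below sets 1 profile against another. The scores are the authors' own, take both signs and are highest beside the viewpoint. The sources used here give neither their unit nor their log base. A score averages over all cells of a culture, so a contact present in fewer cells and a weaker contact in every cell cannot be told apart.

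Gata4 encodes a zinc-finger transcription factor named for the GATA sequence it binds. It is known for its role in extraembryonic and definitive endoderm and in the developing heart. Promoters of such regulators can be brought near distant enhancers by folding of the chromosome, and contact frequency otherwise falls with distance along it. Whsc1, also called Nsd2, is a histone methyltransferase of transcribed chromatin.

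The viewpoint lies at position 63245606 of chromosome 14 (mm10), inside the RefSeq span of Gata4 (63198914 to 63271712), 46.7 kb from its lower and 26.1 kb from its higher end. Usable positions ran from 63036360 to 63467730, that is from 209 kb on the lower side to 222 kb on the higher side. Neighbouring positions were a median of 329 bp apart (quartiles 179 and 555 bp), and the widest gap away from the viewpoint was 1742 bp. The 10 rows at 2.02 to 2.98 kb from the viewpoint held infinite values in all 4 columns, and the 12 rows farthest out on the lower side had no KO score.

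What a position may stand for can be seen in part in sequence. RefSeq promoter windows (GRCm38.p6, the assembly that mm10 represents) that lie inside the covered regions of the series hold 7 pairs of neighbouring GATC sites. In 7 of these 7 pairs a table position lies within 1 bp of the midpoint between the sites. All but 1 of the pairs lie at Foxa2, where several share a site, so the match at Gata4 rests on 1 pair. The only such pair at Gata4 lies in the promoter window of Gm35908, a long non-coding RNA gene (chr14:63070567-63070866, plus strand), in which the 2 sites touch and a table position, 63070662, lies between their first bases. The window of the neighbouring long non-coding RNA 2700070H01Rik (chr14:63054823-63055122, plus strand) has a single GATC and no table position. Both are shown 5′ to 3′ with GATC, which reads the same on both strands, in capitals.
Gm35908: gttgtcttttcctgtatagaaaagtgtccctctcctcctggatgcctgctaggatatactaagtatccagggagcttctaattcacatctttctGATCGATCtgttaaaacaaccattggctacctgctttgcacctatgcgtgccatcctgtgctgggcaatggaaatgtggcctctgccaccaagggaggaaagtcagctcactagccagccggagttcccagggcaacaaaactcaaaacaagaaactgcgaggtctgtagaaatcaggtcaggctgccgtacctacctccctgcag
2700070H01Rik: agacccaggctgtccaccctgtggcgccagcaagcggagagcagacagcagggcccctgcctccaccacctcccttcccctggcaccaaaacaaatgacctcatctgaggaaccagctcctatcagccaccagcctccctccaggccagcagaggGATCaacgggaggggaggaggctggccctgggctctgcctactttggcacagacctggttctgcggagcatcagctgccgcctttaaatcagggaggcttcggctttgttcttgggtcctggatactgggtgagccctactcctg
GATC occurs in 48.0% of the 32851 promoter windows of the RefSeq table, where a gene can have several. At the position inside the Gm35908 window, 175 kb from the viewpoint, the score was -0.60 in ES WT, -0.76 in EB WT, -0.31 in ES KO and -0.26 in EB KO. All 4 values are far below those near the viewpoint, and the KO values lie above the WT values.

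Positions were averaged in windows of 5 kb counted outward from the viewpoint, leaving out those nearer than 5 kb and windows with fewer than 5 positions. This gave 85 windows, 41 on the lower and 44 on the higher side, with 5 to 26 positions each.

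On the lower side the profile fell from the viewpoint through Gata4, Neil2 and Fdft1 in all 4 columns, with lesser rises from Ctsb outward. In ES WT the window at 5 to 10 kb had 3.72, that at 20 to 25 kb 2.12, that at 50 to 55 kb 0.85, that at 100 to 105 kb -0.040 and that at 205 to 210 kb -0.74. The first window below 0 began at 100 kb in ES WT, 95 kb in EB WT, 120 kb in ES KO and 115 kb in EB KO. Between 50 and 100 kb, a linear fit on the logarithm of distance gave slopes per doubling of distance of -1.01 score units in ES WT, -1.13 in EB WT, -0.996 in ES KO and -1.01 in EB KO. These slopes were close to those from 5 to 50 kb on the same side, which were -0.93, -0.90, -1.05 and -1.08 in the same order.

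On the higher side the profile fell as steeply at first and then stopped falling. From 5 to 50 kb the slopes were -0.94 in ES WT, -0.996 in EB WT, -0.95 in ES KO and -1.02 in EB KO. From 50 to 100 kb they were -0.17 in ES WT and -0.070 in ES KO, and positive, at 0.42 and 0.23, in EB WT and EB KO. Beyond 100 kb the fall resumed, with slopes from 100 to 200 kb of -1.15, -1.88, -1.18 and -1.34 in ES WT, EB WT, ES KO and EB KO. The higher side thus held a shelf, a stretch of nearly level contact, that the lower side lacked at the same distances.

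The shelf covered the transcript Gm4151 (63308919 to 63358503), which begins 63.3 kb from the viewpoint, beyond a gene-free stretch of 37.2 kb next to Gata4. In ES WT the window means from 60 to 110 kb lay between 0.62 and 0.69. In EB WT the score had a dip of 0.58 at 60 to 65 kb and a maximum of 1.00 at 95 to 100 kb (63340606 to 63345605), a rise of 0.42. In ES KO the dip was 1.03 at 65 to 70 kb and the maximum 1.17 at 75 to 80 kb, a rise of 0.14. In EB KO the dip was 0.95 at 65 to 70 kb, and 2 maxima of 1.21 and 1.20 lay at 75 to 80 and 95 to 100 kb. The maximum at 95 to 100 kb in ES WT rose by 0.068 over its nearer dip, so ES WT was nearly flat there. On the lower side the greatest such rises were 0.048 in ES WT, 0.17 in EB WT, 0.047 in ES KO and 0.17 in EB KO, all beyond 150 kb and at scores below 0. EB WT also had a maximum of 0.010 inside Ctsb at 110 to 115 kb, a rise of 0.11 over the dip of -0.097 at 100 to 105 kb. The greatest of EB WT lay at 200 to 205 kb, at the edge of a stretch described below where both WT columns hold nearly equal scores. By the mean of the 4 columns, the 5 highest windows from 50 kb outward were 95 to 100 kb (1.00), 90 to 95 kb (0.98), 75 to 80 kb (0.95) and 50 to 55 kb (0.95) on the higher side and, in Neil2, 50 to 55 kb (0.99) among the lower-side windows.

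**Figure D1:**
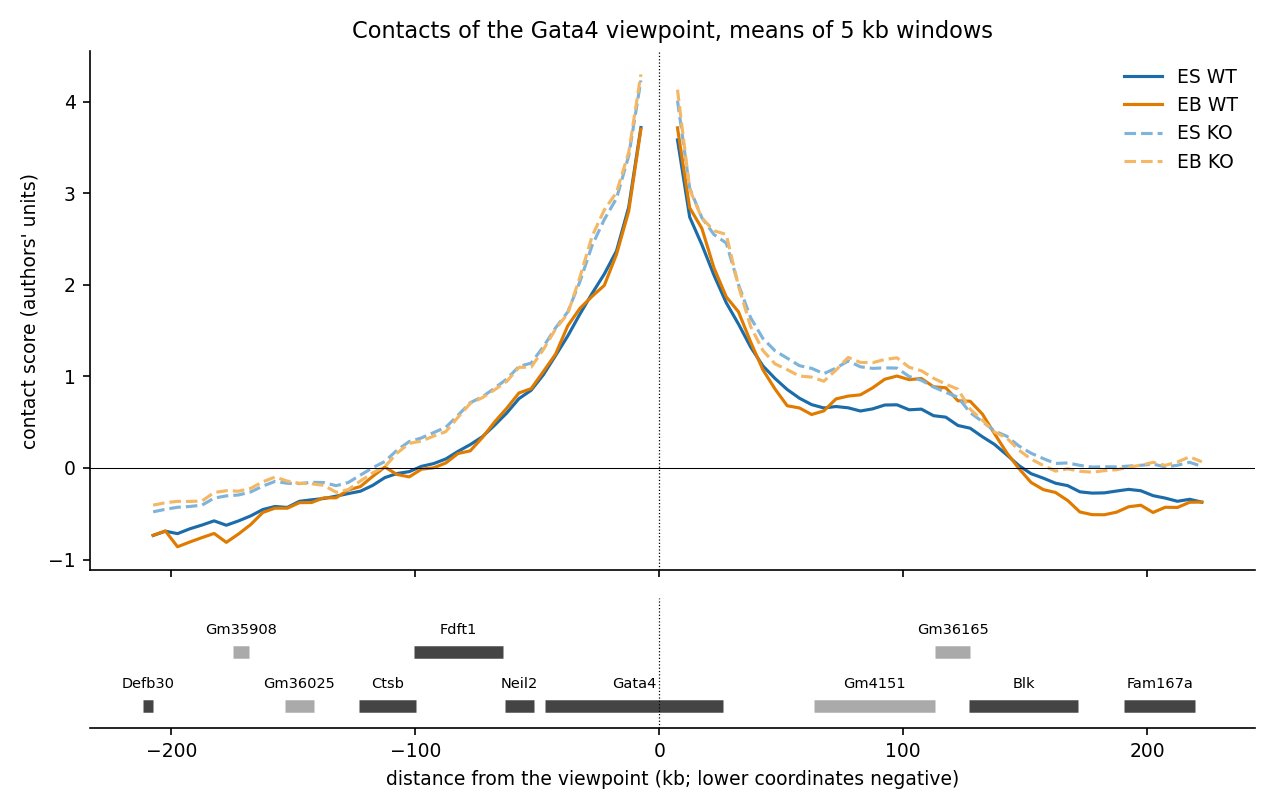
Mean contact score of 5 kb windows (y axis, authors' units) against distance from the Gata4 viewpoint (x axis, kb, lower coordinates negative) for ES WT, EB WT, ES KO and EB KO, above a map of annotated spans (dark bars are protein-coding genes, light bars other transcripts). The lower side falls through Fdft1 in every column and has lesser rises farther out, while the higher side stays between 0.58 and 1.21 from 60 to 110 kb over Gm4151 in all 4 columns.

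Set against each other at equal distance, the sides ran close together near the viewpoint and then parted, and from 65 kb outward the higher side was above the lower side in every pair of windows of each column. In ES WT the higher side was above the lower side in 33 of 41 pairs of windows, and in EB WT, ES KO and EB KO in 33, 33 and 31. From 75 to 140 kb the mean excess of the higher side was 0.63 in ES WT, 0.89 in EB WT, 0.70 in ES KO and 0.81 in EB KO, over 13 pairs each. It was greatest at 115 to 120 kb in ES WT (0.75), at 100 to 105 kb in EB WT (1.06) and at 120 to 125 kb in ES KO (0.85) and EB KO (1.00). Within 50 kb the mean excesses were -0.075, -0.0060, -0.13 and -0.19 in ES WT, EB WT, ES KO and EB KO. The strongest lower-side excess was -0.40 in EB KO and -0.35 in ES KO, both at 10 to 15 kb and inside Gata4. EB WT stood apart there: its higher side was above its lower side in each pair from 5 to 25 kb, by up to 0.28 at 15 to 20 kb, and below it from 25 to 65 kb, by up to 0.19 at 45 to 50 kb. Averaged over all 41 pairs, the lower side minus the higher side was -0.33 in ES WT, -0.39 in EB WT, -0.34 in ES KO and -0.33 in EB KO, of the same sign in each column. Without the windows below the median mean score it was -0.049, -0.082, -0.029 and, with the sign reversed, 0.017. The lower-side windows then kept end at 85 kb, so these values leave out every pair farther out, including most from 75 to 140 kb.

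**Figure D2:**
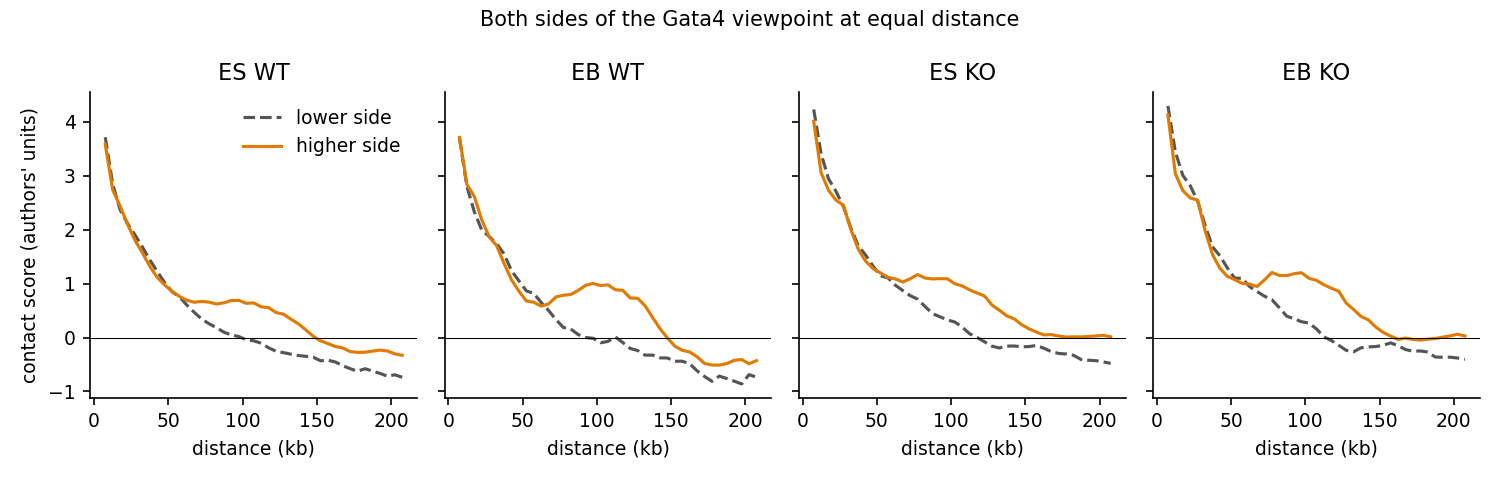
Mean contact score of 5 kb windows (y axis, authors' units) against distance from the Gata4 viewpoint (x axis, kb), 1 panel for each column, with the lower side dashed and the higher side solid. In each panel the higher side lies above the lower side from 75 to 140 kb, by a mean of 0.63 to 0.89.

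Described by gene, the score followed distance and side. Over Gata4 itself (152 positions) the mean was 2.47 in ES WT, 2.51 in EB WT, 2.89 in ES KO and 2.93 in EB KO. Of its 2 parts, the one on the higher side of the viewpoint differed between stages in WT by 0.10 and the longer one on the lower side by 0.00079. Neil2, a DNA glycosylase that removes oxidized bases (63182439 to 63194154, 39 positions), had 0.74, 0.80, 1.08 and 1.06 in ES WT, EB WT, ES KO and EB KO. Gm4151, whose nearer end lies at a distance like that of the far end of Neil2 and which reaches out to 113 kb, had 0.65, 0.86, 1.06 and 1.11 over 109 positions. Fdft1, which encodes squalene synthase of the sterol pathway (63145150 to 63181687), begins 63.9 kb away on the lower side and had 0.21, 0.18, 0.60 and 0.57 over 89 positions. Gm4151 and Fdft1 thus begin at nearly the same distance on opposite sides, and the mean over Gm4151 was the higher in all 4 columns.

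Farther out, Ctsb, which encodes the lysosomal protease cathepsin B (63122462 to 63145923, 99.7 kb away), had -0.12 in ES WT, -0.077 in EB WT, 0.11 in ES KO and 0.065 in EB KO. On the other side the overlapping long non-coding RNAs Gm36165 and Gm46458, which begin 113 and 114 kb away, had 0.51 each in ES WT and 0.82 and 0.81 in EB WT. Blk, a tyrosine kinase of B lymphoid cells (63372837 to 63417187, 127 kb away), lay on the falling stretch beyond the shelf and had means of 0.015, -0.011, 0.22 and 0.18 in ES WT, EB WT, ES KO and EB KO over 128 positions. Its 5 kb windows fell from 0.34 at 130 to 135 kb to -0.26 at 170 to 175 kb in ES WT, and from 0.59 to -0.48 in EB WT. Fam167a (190.8 kb away, 91 positions) had -0.31, -0.42, 0.031 and 0.051 in ES WT, EB WT, ES KO and EB KO. On the lower side, Gm36025, Gm35908 and 2700070H01Rik had -0.39, -0.57 and -0.65 in ES WT. Defb30, a beta-defensin gene at the edge of the table, had -0.74 there. Defb42, Gm17941, Gm23629 and Gm51283 held fewer than 5 positions each, so no mean was given.

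Between ES and EB in WT, the widest difference was an excess in EB along the outer part of the shelf. At the position with the greatest difference in that stretch, 63344450 in Gm4151 and 98.8 kb away, the score was 0.71 in ES WT and 1.10 in EB WT, against 1.08 in ES KO and 1.20 in EB KO. EB minus ES was at least 0.2 at 103 neighbouring positions from 63332040 to 63379810, a stretch of 47.8 kb from 86.4 to 134.2 kb that runs through Gm4151, Gm36165 and Gm46458 into Blk, with a mean of 0.30. The 5 greatest window differences all lay there: 0.33 at 105 to 110 kb, 0.33 at 100 to 105 kb, 0.32 at 115 to 120 kb, 0.32 at 110 to 115 kb and 0.31 at 95 to 100 kb. At 105 to 110 kb the score was 0.64 in ES WT and 0.98 in EB WT.

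This excess was framed by stretches with the opposite sign. The bounds of these and later stretches were chosen after their values were seen. Counts of neighbouring positions within them therefore describe a stretch and are no test. Over all windows, EB minus ES in WT was negative in 47 of 85 at Gata4 and in 180 of 332 over all 4 viewpoints. Nearer the viewpoint, in the gene-free stretch and the start of Gm4151 from 45 to 70 kb, 51 of 54 positions were lower in EB WT than in ES WT, with a mean difference of -0.11. Farther out, from 170 to 205 kb over the end of Blk and the start of Fam167a, 84 of 84 positions were lower in EB WT, with means of -0.26 in ES WT and -0.46 in EB WT and a difference of -0.20. In WT the higher side therefore had deeper dips and a higher maximum in EB than in ES. Within Gata4 on the higher side of the viewpoint, the 4 windows from 5 to 25 kb were all higher in EB WT, by 0.080 to 0.18. On the lower side the window differences ran between -0.068 and 0.12 from 30 to 165 kb. From 165 to 200 kb on the lower side, 79 of 79 positions were lower in EB WT, by a mean of 0.14, with -0.61 in ES WT and -0.75 in EB WT. That stretch ended abruptly: at the 45 outermost lower positions, 200.6 to 212.6 kb away, the WT columns differed by at most 0.0028, and at the next position inward they differed by -0.13. Another 44 of the 1085 positions with finite WT scores differed by at most 0.005, and the origin of the nearly equal stretch was not tested.

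Gata4 was singled out as the viewpoint whose contacts were most alike between stages. Low counts of stage differences, and of their difference between genotypes, partly follow from that choice and are only a description. No window reached 0.5 score units between the stages in WT, where 56 of 332 windows (16.9%) did so over all 4 viewpoints. At 0.3 it was 5 of 85 windows, all higher in EB, against 38.9% over all 4 viewpoints. The median over the Gata4 windows was -0.017 and the SD over windows, which describes unevenness along the chromosome and is no replicate error, was 0.14.

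In KO the stage difference was smaller. No window reached 0.5 in KO, where 1.51% did so over all viewpoints, and none reached 0.3, against 10.5%. Foxa2 likewise had 0 of 80 windows at 0.5 in KO, and 2 of 80 at 0.3. At Gata4 the SD over windows was 0.063 and the median -0.0096. In the gene-free stretch of the higher side the difference was -0.14 at 45 to 50 kb and -0.13 at 40 to 45 kb, the 2 largest in size, and ES KO had 1.28 and 1.41 there and EB KO 1.14 and 1.28. The next were -0.12 at 50 to 55 kb, 0.12 at 5 to 10 kb and -0.11 at 55 to 60 kb, also on that side. From 45 to 70 kb the mean difference was -0.11 in KO and -0.11 in WT, so within these bounds the dip had a similar size in both genotypes. Nearer the viewpoint the genotypes parted. The window at 30 to 35 kb had -0.017 in KO and 0.13 in WT, and that at 35 to 40 kb -0.097 and 0.056. At 40 to 45 kb WT had -0.042. The stretch at 90 to 135 kb was likewise chosen with its values known. In it, 94 of 94 positions were higher in EB in each genotype, by a mean of 0.30 in WT and 0.080 in KO. By window, EB minus ES in KO was positive in 40 of 85 at Gata4 and in 170 of 332 over all 4 viewpoints. From 170 to 205 kb the mean was -0.20 in WT and -0.025 in KO.

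Across the 85 windows the stage differences of the genotypes had a Pearson's r of 0.42 and a slope of KO on WT of 0.18. The r was -0.32 at Foxa2, 0.63 at Gata6 and -0.091 at T. At Gata4 the sign was the same in 45 windows and the size larger in WT in 59. The sign was the same in 25 of 80 windows of Foxa2, 66 of 83 of Gata6 and 44 of 84 of T. The size was larger in WT in 66, 68 and 59 windows in the same order, so neither count sets Gata4 apart. The windows of a column share its libraries and scores that change smoothly along the chromosome, so they are not independent points. On the lower side the signs parted in several places. At 165 to 200 kb the mean was -0.14 in WT and 0.051 in KO, with 79 of 79 positions positive in KO. These are neighbours in a stretch chosen by its values, and 40 of all 85 windows were positive in KO. Within Gata4 at 20 to 30 kb it was -0.075 in WT and 0.10 in KO.

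Subtracting the WT stage difference from the KO one left 0 windows of Gata4 at 0.5 or more, against 18.4% over all viewpoints, and 0 at 0.3 or more, against 33.4%. Its greatest values were -0.26 where Blk begins, at 125 to 130 kb of the higher side, and 0.24 in the lower-side window from 175 to 180 kb, which reaches the start of the Gm35908 promoter window shown above. The next 3 were each -0.23, at 130 to 135, 115 to 120 and 105 to 110 kb of the higher side. At 125 to 130 kb the score was 0.43 in ES WT, 0.73 in EB WT, 0.60 in ES KO and 0.64 in EB KO. At 175 to 180 kb it was -0.63, -0.81, -0.31 and -0.25 in the same order. In both windows EB WT stands apart from ES WT by more than the KO columns stand apart from each other.

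**Figure D3:**
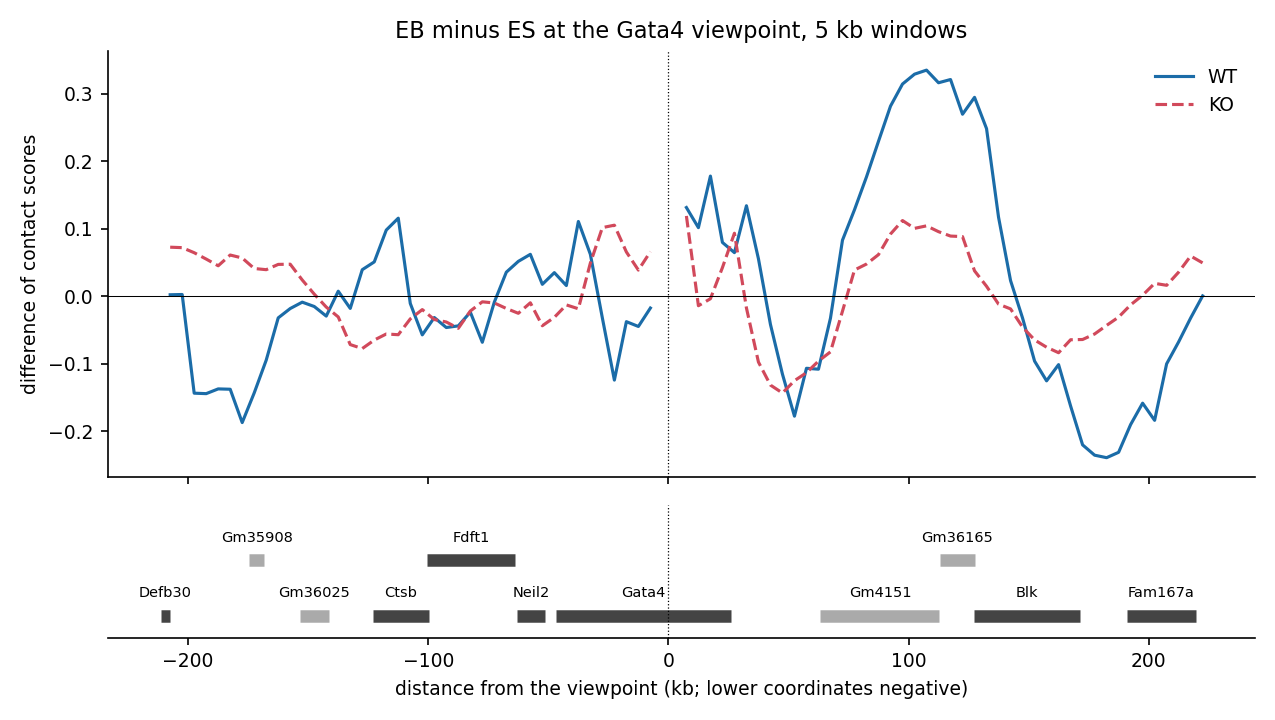
EB minus ES contact score of 5 kb windows (y axis, score units) against distance from the Gata4 viewpoint (x axis, kb, lower coordinates negative) in WT (solid) and KO (dashed), above the annotated spans. On the higher side both curves are below 0 from 45 to 70 kb and above 0 from 90 to 135 kb, where WT reaches 0.33 and KO 0.11.

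Between genotypes, the KO score was the higher at nearly every distance. KO minus WT was positive in 85 of 85 windows in ES, with a median of 0.31, and in 83 of 85 in EB, with a median of 0.33. Over all viewpoints it was positive in 219 of 332 windows in ES and in 206 of 332 in EB. The sign differed between viewpoints. The medians were 0.16 in ES and 0.17 in EB at Foxa2, and 0.050 and 0.086 at Gata6. At T they were -0.31 in ES and -0.31 in EB, with 13 and 25 of 84 windows positive. Whether the WT and KO columns share a scale is nowhere stated in the sources used here, and the KO columns lack positions that the WT columns have, so a level common to all windows cannot be read as more contact. Differences are therefore also given after subtraction of the median over the Gata4 windows (centred).

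In ES the difference was uneven, and 4 of its 5 greatest windows lay inside Gata4. The greatest was 0.65 at 25 to 30 kb of the higher side, a window from 63270606 to 63275605 that lies mostly past the end of Gata4 at 63271712, in the gene-free stretch. In windows of 2 kb the difference there was 0.54 at 24 to 26 kb, inside the gene, and 0.68 at 28 to 30 kb, beyond it. The others were, among the lower-side windows, 0.60 at 20 to 25 kb, 0.57 at 15 to 20 kb, 0.56 at 10 to 15 kb and 0.52 at 25 to 30 kb. At 25 to 30 kb on the higher side the score was 1.80 in ES WT, 1.87 in EB WT, 2.46 in ES KO and 2.55 in EB KO, so neither KO value lies near a WT value. After centring these 5 windows had 0.35, 0.29, 0.27, 0.25 and 0.22. The smallest differences, 0.11 and 0.12, lay in the gene-free stretch beyond Ctsb, in the lower-side windows from 130 to 135 and 125 to 130 kb. A lesser maximum of 0.51 lay in Gm4151, 75 to 80 kb away. In all, 7 of 85 windows were higher in KO by at least 0.5, against 2.41% over all viewpoints. After centring 0 windows reached 0.5 in either direction, against 1.81%.

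In EB the same 5 windows led. The difference was 0.82 in the lower-side window from 20 to 25 kb, where EB WT had 1.99 and EB KO 2.82, and 0.68 in the higher-side window from 25 to 30 kb. The other 3 had between 0.64 and 0.68. This comparison and the WT stage difference both use EB WT, so they are not independent. KO minus WT in EB was 0.080 from 90 to 135 kb, against 0.30 in ES, and after centring -0.25, against -0.0049. The only negative windows were -0.087 at 125 to 130 kb and -0.068 at 130 to 135 kb. Likewise it was 0.46 at 170 to 205 kb, against 0.28 in ES. Over Ctsb from 110 to 125 kb it was 0.036, against 0.18 in ES. In EB, 9 of 85 windows were higher in KO by at least 0.5, against 11.7% over all viewpoints, and 0 reached 0.5 after centring, against 16.3%. The largest centred difference was 0.496, in the lower-side window from 20 to 25 kb.

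**Figure D4:**
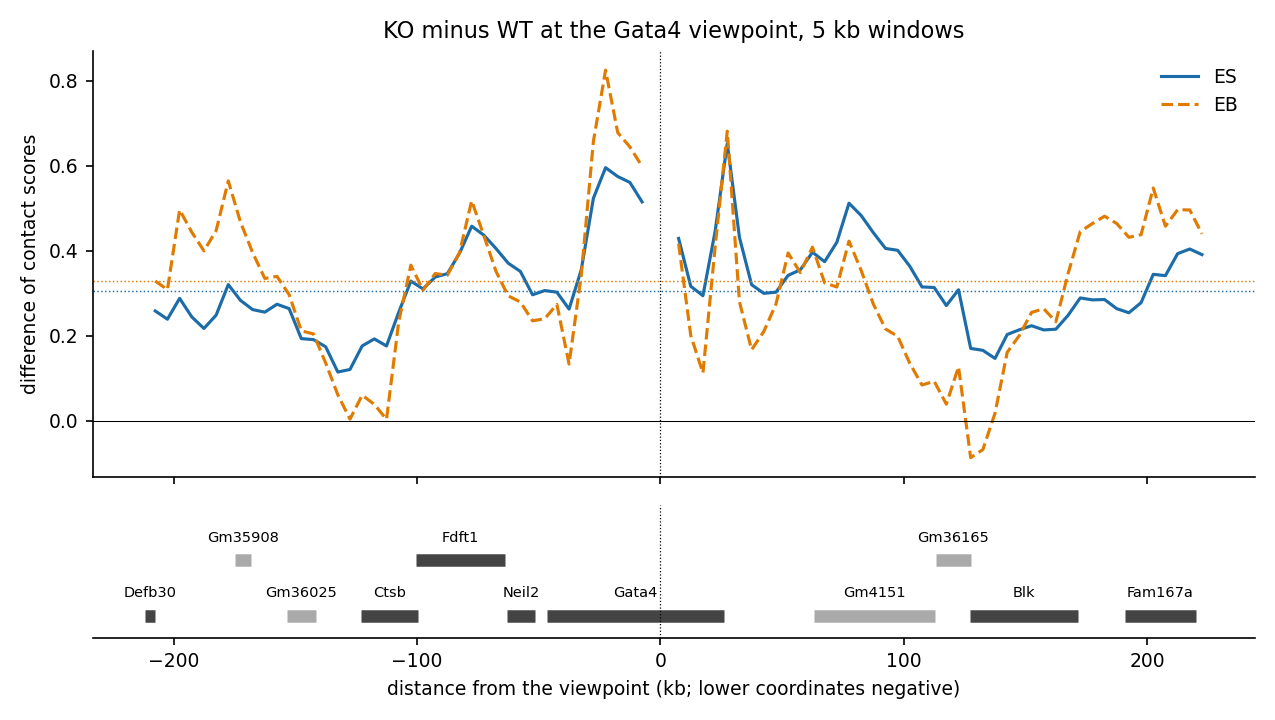
KO minus WT contact score of 5 kb windows (y axis, score units) against distance from the Gata4 viewpoint (x axis, kb, lower coordinates negative) in ES (solid) and EB (dashed), with dotted lines at the median over the windows of each, above the annotated spans. Peaks of 0.60 in ES and 0.82 in EB lie inside Gata4, 20 to 25 kb to the lower side of the viewpoint, and peaks of 0.65 and 0.68 lie 25 to 30 kb to its higher side, mostly past the end of the gene.

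Of the 4 viewpoints, Gata4 had the least uneven stage difference. It was singled out for this, so the values below are a description with no test. The SD over 5 kb windows of EB minus ES in WT was 0.14 at Gata4, 0.28 at Foxa2, 0.47 at T and 0.55 at Gata6. In KO it was 0.063, 0.14, 0.20 and 0.25 in the same order. This order was the same with windows of 2 and 10 kb in both genotypes. The SD of the ES WT profile itself was similar at all 4, with 0.99 at Gata4, 0.96 at Foxa2, 0.95 at T and 0.996 at Gata6. The stage difference thus amounted to 14.5% of the SD of the ES profile at Gata4 in WT, against 29.3% at Foxa2, 49.3% at T and 55.2% at Gata6, and to 5.99% in KO, where the other viewpoints had higher values, up to 25.9% at Gata6. The ratio of the WT to the KO unevenness, 2.26 at Gata4, lay within the range of the other viewpoints, 2.02 to 2.35.

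**Figure D5:**
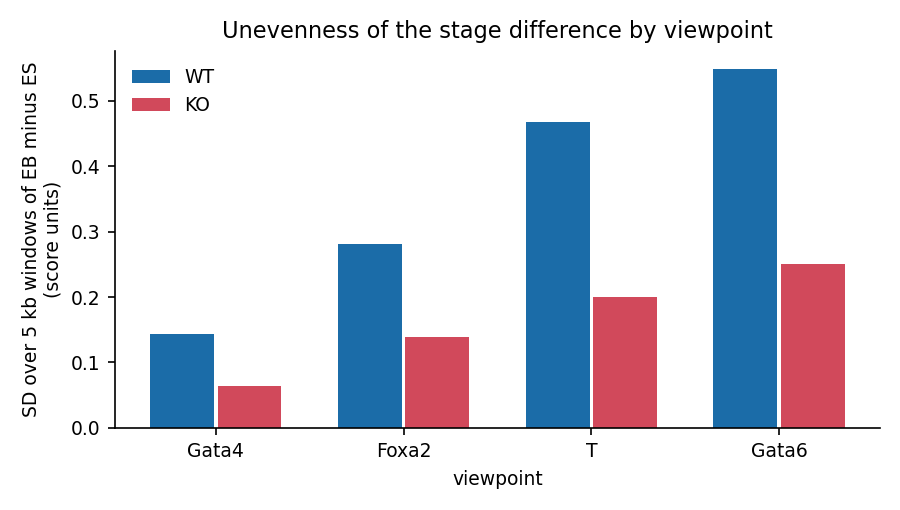
SD over 5 kb windows of EB minus ES (y axis, score units, from 0) at each viewpoint (x axis) in WT and KO. The bars rise from Gata4 (0.14 in WT and 0.063 in KO) to Gata6 (0.55 and 0.25), and they describe unevenness along the chromosome, not replicate error.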

How the data were processed

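Per the file headers, the authors deposited a contact score at each position for every combination of stage and genotype. How scores were smoothed or scaled, and how deep the libraries were, is unstated in the sources used here, so counting errors could not be estimated. The submitters' processing notes name mm10 as the build and list STAR, BWA and deepTools without their roles. Infinite scores, all within 3 kb of the viewpoint, and positions missing in any column were left out. Windows of 5 kb, gene spans (RefSeq, GRCm38.p6, at least 5 positions, with positions under 5 kb kept), slopes on the base-2 logarithm of distance and runs of positions were computed with Python 3.11.15, pandas 2.3.3 and numpy 2.4.6. Window counting was tested on simulated profiles. With 1 pooled column per group, a size of 0.5 or 0.3 score units replaced a test. Named windows were the 5 highest from 50 kb outward, the local maxima and the 5 greatest differences of each comparison. The members, gene lists, sizes and stretches were chosen with earlier results of these data known, the stretches after their values were seen.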

Additional observations from a re-analysis of the deposited data

Results flagged for a closer look

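Over the part of Ctsb and its far end at 110 to 125 kb on the lower side (63120607 to 63135606), the stages differed in opposite directions in the genotypes in each of 3 neighbouring windows. EB minus ES averaged 0.088 in WT, from -0.18 to -0.095, and -0.059 in KO, from -0.0018 to -0.061. Subtracting the WT value from the KO value gave -0.15. The block was picked for its opposite signs, which are common, since the genotypes shared a sign in 45 of 85 windows. On the same side the stretch from 165 to 200 kb had a contrast of larger size, 0.19. Neither difference was tested, since each group has a single column.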

How the results depend on the processing

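Of 180 values recomputed for 23 results under 11 other settings, 143 stayed within 0.1 score units or, for percentages and SDs, within 1.5 times. These include percentages that were 0 and stayed 0, and medians near 0 whose sign changed. The median of EB minus ES in WT ran from -0.018 to 0.062. That of the KO stage difference minus the WT one ran from -0.072 to 0.0024. The SD over windows of EB minus ES stayed between 0.13 and 0.14 in WT and between 0.062 and 0.073 in KO. Results with no replicates have no other error to set these against, and the depth is unknown. No paired analysis was possible because the 2 libraries of a group share 1 pooled column that carries no replicate number, and for the same reason no replicate could be left out.

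At a size of 0.3, 5.88% of windows passed in EB minus ES in WT, 52.9% in KO minus WT in ES and 55.3% in EB. At 0.75 the latter 2 had 0% and 1.18%, after centring 0% and 0%, and without the windows below the median mean score 16.3% and 16.3%, against 8.24% and 10.6% as reported. Without those windows the lower side minus the higher side was -0.049 in ES WT and -0.082 in EB WT. It was -0.029 in ES KO and, with a change of sign, 0.017 in EB KO. This setting compares the sides only out to 85 kb, where the lower-side windows that it keeps end. Distal windows (from 50 kb) minus nearer ones had -1.98, -2.01, -2.10 and -2.11 in ES WT, EB WT, ES KO and EB KO. These became -2.14, -2.18, -2.28 and -2.30 with 10 kb windows, -1.77, -1.80, -1.88 and -1.88 without positions under 10 kb, and -2.09, -2.11, -2.21 and -2.22 with those from 2 kb kept. They became -1.43, -1.33, -1.49 and -1.49 without the lower-scoring windows, -1.69, -1.64, -1.80 and -1.82 up to 150 kb, and -1.42, -1.47, -1.57 and -1.55 with distal windows from 100 kb. The contrast was negative in each case.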

Other observations

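At the outer end of the higher side, over Fam167a, each column had local maxima. In the KO columns these lay at 200 to 205 kb (0.042 in ES KO and 0.061 in EB KO) and at 215 to 220 kb (0.062 and 0.12). The rises over the dip at 175 to 180 kb were 0.032 in ES KO and 0.11 in EB KO at 200 to 205 kb. At 215 to 220 kb they were 0.052 and 0.17. EB WT rose by 0.10 from its dip of -0.51 at 180 to 185 kb to -0.41 at 195 to 200 kb, and had -0.37 in the outermost window. It had a further maximum of -0.43 at 205 to 210 kb, a rise of 0.057. ES WT rose by 0.041 to -0.23 at 190 to 195 kb and by 0.022 to -0.34 at 215 to 220 kb. From position to position the greatest step beyond 50 kb in both KO columns was at the same place, 215.5 kb on the higher side, at 0.088 in ES KO and 0.13 in EB KO. In EB WT the greatest such step was 0.20, at 205.9 kb on the higher side.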
